A study of Mus musculus with 12 samples.

Results

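The BCL2 family decides whether the outer membrane of the mitochondrion stays sealed, and its transcripts were followed here in alveolar epithelial type 2 cells (AEC2), the surfactant-making cells of the lung, from mice that express a mutant surfactant protein C. The members were 10 genes taken by name, Bcl2, Bcl2l1, Mcl1, Bcl2l11, Bak1, Bid, Bad, Bok, Bik and Bmf, and all 10 were found among the 16080 genes in the files. Bulk RNA sequencing covered 12 libraries, 4 from each of 3 genotypes: SP-C WT (WT), SP-C C185Gneo (C185Gneo), which the series calls a hypomorphic control, and SP-C C185G (C185G), a mutation in the BRICHOS domain of surfactant protein C. All were female Bl6 mice at postnatal day 56. Each genotype, WT included, received 200 mg/kg of intraperitoneal tamoxifen on 2 days, and AEC2 were isolated on day 7. Cells that stuck to plastic (mesenchymal cells) and cells that carry CD45 (blood cells, taken out on magnetic beads) had been depleted beforehand. The recombinase that tamoxifen acts on, and whether each library came from a separate animal, are stated nowhere in the labels used here, so p-values measure the spread between these libraries.

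Proteins of this family share short BCL2 homology stretches, of which the third, BH3, is the one through which they bind each other. Survival proteins (Bcl2, Bcl2l1, Mcl1) hold the BH3 stretch of a partner in a surface groove, effectors (Bak1, Bok and the non-member Bax) build the pore that releases cytochrome c, and BH3-only proteins (Bcl2l11, Bmf, Bid, Bad, Bik) carry stress signals to the other classes. In epithelium, Bcl2l11 (the protein BIM) and Bmf are known from cell detachment and growth factor loss, and Bid is known as the link from death receptors to mitochondria.

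Recovered totals were 15659512 to 23444287 counts per library, so that 1 read equalled 0.0428 to 0.0616 normalized CPM (counts per 1000000, after the authors' scaling). Libraries follow the genotype field of the labels: those of genotype C185Gneo carry titles that read C185G, and those of genotype C185G carry titles with another code. Sftpc, the edited gene, averaged 7467 ± 194 CPM in WT libraries, 895 ± 143 in C185Gneo libraries and 2833 ± 256 in C185G libraries (mean ± SD, n = 4 each), lowest in the libraries labelled C185Gneo. All 10 listed AEC2 markers were measured, and all 10 were lower in C185G than in WT. Their summed levels were 33550 to 39360 CPM (WT), 30190 to 34240 (C185Gneo) and 14110 to 16900 (C185G). The sums include Sftpc, the 1 marker of this list that passed between C185Gneo and WT (lower in C185Gneo), while the other 9 did not pass. Against C185Gneo, 9 of the 10 were lower in C185G and 1, Sftpc, was higher. Summed levels of markers of other cells were 160 to 251 CPM (WT), 147 to 233 (C185Gneo) and 119 to 140 (C185G) for 9 of 10 endothelial genes. They were 459 to 716, 181 to 519 and 603 to 824 for 10 of 10 mesenchymal genes (the 181 being C185Gneo replicate 1), and 22.4 to 45.7, 26.4 to 42.8 and 30.3 to 129 for 7 of 10 neutrophil and monocyte genes. Club and goblet genes (6 of 6) summed to 5383 to 7429, 5940 to 7375 and 4603 to 5302 CPM in the same order of genotypes, with 2 of 6 lower in C185G than in WT and 5 of 6 lower than in C185Gneo. Ciliated genes (6 of 6) summed to 915 to 1244, 801 to 1064 and 679 to 1011, alveolar type 1 genes (10 of 10) to 2509 to 3229, 2405 to 2974 and 2456 to 3078, and macrophage genes (5 of 11, 3 higher in C185G in both comparisons) to 50.1 to 65.0, 41.0 to 55.0 and 54.2 to 72.0. In C185G, 1 of 10 mesenchymal genes was higher than in WT and 8 of 10 were higher than in C185Gneo. Of the 7 neutrophil and monocyte genes, 4 were higher and 1 lower against WT, and 5 higher and 1 lower against C185Gneo. By the same calls, 27.3% of all genes were higher and 27.8% lower against WT, and 29.2% and 28.7% against C185Gneo. The part of all these other cells in the results below was not tested. In bulk RNA, fewer cells of a type and less RNA per cell cannot be told apart.

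BH3-coding stretches of the members that moved most, and of 2 survival members, are shown first. Each line holds 45 bases of coding sequence from the main GENCODE M21 transcript, 5′ to 3′ on the coding strand. Capitals mark the codon of the leucine that anchors the helix and, after 3 codons in small letters, the codon for a small residue followed by the codon for aspartate. A search of the coding sequences for this pattern (leucine, 3 codons of any kind, then glycine, alanine or serine, then aspartate) found 1 match in each of the 10 members. The members were taken by name, and how many other coding sequences hold the pattern was not counted, so the matches only describe these genes.
Bcl2l11: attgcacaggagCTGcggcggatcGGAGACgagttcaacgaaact
Bmf: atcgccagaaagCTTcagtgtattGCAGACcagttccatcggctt
Bak1: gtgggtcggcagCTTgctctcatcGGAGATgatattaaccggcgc
Bcl2l1: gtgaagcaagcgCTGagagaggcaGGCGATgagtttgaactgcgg
Bcl2: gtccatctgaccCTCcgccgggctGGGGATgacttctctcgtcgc
In GRCm38, the build named mm10 in the submitters' processing notes, these lie at chr2:128147138-128147182 (Bcl2l11, plus strand, exon 3), chr2:118545094-118545138 (Bmf, minus strand, exon 4), chr17:27022525-27022569 (Bak1, minus strand, exon 4), chr2:152829691-152829735 (Bcl2l1, minus strand, exon 2) and chr1:106712569-106712613 (Bcl2, minus strand, exon 1). The small residue was glycine in 8 of the 10 members, alanine in Bmf and serine in Bad. Base by base, Bcl2l11 and Bmf shared 25 of the 45 positions, and the 45 pairs of members shared 16 to 28 (median 21).

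Against WT, 7 of the 10 members passed the test in C185G (limma over all 16080 genes, Benjamini-Hochberg adjusted p under 0.05). Bcl2l1, Bak1 and Bid rose, and Bcl2, Mcl1, Bcl2l11 and Bmf fell. This comparison was broad: 55% of all genes passed, 27.3% higher and 27.8% lower, so a count of 7 of 10 lies near the background and is no result about the family. The same 7 members had groups that did not overlap, which held for 48.7% of all genes. Bcl2l11, Bmf and Bak1, 3 of 10, both passed and changed by over 1 on the log2 scale, as did 11.6% of all genes. The median size of the log2 change was 0.55 over the members and 0.34 over all genes. Against C185Gneo, 6 members passed, 2 higher (Bcl2l1, Bak1) and 4 lower (Bcl2, Mcl1, Bcl2l11, Bmf), where 57.8% of all genes passed, 29.2% higher and 28.7% lower. In that comparison 5 members had groups that did not overlap (49.9% of all genes), and the same 3 members both passed and exceeded 1 in size (13.3% of all genes). The 2 comparisons share the C185G libraries. Scaled by library totals instead of the authors' factors, calls over all genes were 5364 higher and 3595 lower against WT, where the authors' scaling gave 4388 and 4464, and 5437 and 3925 against C185Gneo, where it gave 4691 and 4607.

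**Figure D1:**
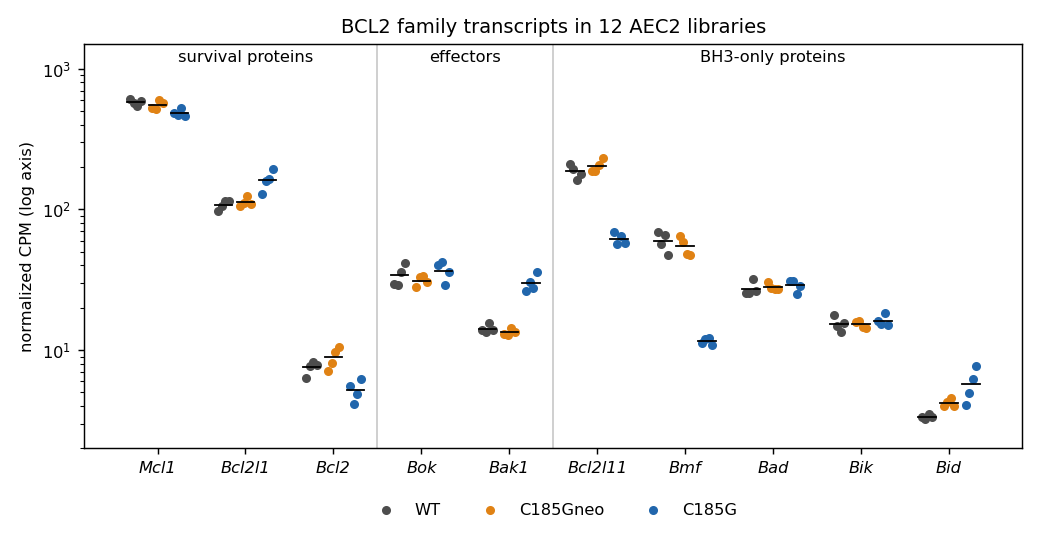
Normalized CPM (log axis) of the 10 members in each library, 4 points per genotype, with a bar at the group mean, ordered by role. Bcl2l11 and Bmf sit lower, and Bak1 and Bcl2l1 higher, in all 4 C185G libraries than in any WT or C185Gneo library.

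Between C185Gneo and WT no member passed, where 0.541% of all genes did by the same limma test. No member was under an unadjusted p of 0.05 either, and limma without a trend and with voom weights also called 0. Bid was the 1 member whose C185Gneo and WT libraries did not overlap (6.87% of all genes), with a log2 change of 0.33 (95% interval -0.03 to 0.69, adjusted p = 0.57). Intervals for the other 9 members lay within -0.39 and 0.56 on the log2 scale.

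Among BH3-only genes, Bmf had the largest change of the 10 members in both C185G comparisons. Bmf (ENSMUSG00000040093, chr2:118528757-118549687, minus strand) codes for a protein known to be held on the cytoskeleton through dynein light chain. Its level was 69.5, 57.2, 65.9 and 47.7 CPM in WT, 65.2, 58.2, 48.2 and 47.7 in C185Gneo, and 11.3, 12.1, 12.3 and 10.8 in C185G. The 4 C185G libraries lay close together and far below the 8 control libraries, which overlapped each other. Bmf fell by 2.36 on the log2 scale against WT (SE 0.12, adjusted p = 6.27e-09), a 5.12-fold lower level, and by 2.23 against C185Gneo (SE 0.12, adjusted p = 8e-09).

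Bcl2l11 (ENSMUSG00000027381, chr2:128126038-128162547, plus strand), a BH3-only gene whose protein can bind every survival protein of the family, was the second to fall. Its level was 212, 195, 162 and 177 CPM in WT, 188, 187, 206 and 233 in C185Gneo, and 69.0, 56.5, 65.1 and 57.7 in C185G. The highest C185G library stood at less than any control library by a wide gap, and the WT and C185Gneo libraries overlapped. Bcl2l11 fell by 1.58 against WT (SE 0.10, adjusted p = 2.19e-08), to 0.33 of the WT level, and by 1.71 against C185Gneo (SE 0.10, adjusted p = 9.12e-09). Both genes fell together with the AEC2 marker list, whose summed levels are given above, and the part of that in either result was not tested.

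Bid (ENSMUSG00000004446, chr6:120891930-120916853, minus strand), which caspase 8 cleaves, was among the scarcest members. It stood at 3.32, 3.23, 3.51 and 3.33 CPM in WT, 4.02, 4.28, 4.58 and 4.01 in C185Gneo, and 4.07, 4.98, 6.21 and 7.70 in C185G, from 54 to 125 reads per library. The C185G libraries were spread widely, lay above all WT libraries and overlapped C185Gneo. Bid rose by 0.73 against WT (SE 0.17, adjusted p = 0.00206). Against C185Gneo the log2 difference was 0.40 (95% interval 0.04 to 0.76, adjusted p = 0.053), and it passed without C185G replicate 1 (0.55, adjusted p = 0.0056) and was 0.25 without C185G replicate 4. The span of Bid overlaps that of Bcl2l13 on the opposite strand by 913 bases, and because no source used here states whether counting was stranded, reads there cannot be assigned with certainty.

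Bad and Bik did not pass in any comparison. Bad (ENSMUSG00000024959, chr19:6941861-6951899, plus strand), whose protein 14-3-3 proteins hold when it is phosphorylated, stood at 25.3, 25.4, 31.9 and 26.5 CPM in WT, 30.6, 27.6, 27.0 and 27.1 in C185Gneo, and 31.0, 30.8, 25.2 and 28.5 in C185G. All 3 groups overlapped, and the log2 difference was 0.08 against WT (95% interval -0.11 to 0.28, adjusted p = 0.45) and 0.04 against C185Gneo (-0.15 to 0.23, adjusted p = 0.73). Bad overlaps Gpr137 on the opposite strand by 620 bases. Bik (ENSMUSG00000016758, chr15:83526862-83544634, plus strand), known from the endoplasmic reticulum membrane, stood at 17.7, 14.9, 13.5 and 15.5 CPM in WT, 15.9, 16.1, 14.6 and 14.5 in C185Gneo, and 16.1, 15.3, 18.4 and 15.1 in C185G. The groups overlapped here too, with log2 differences of 0.08 (95% interval -0.13 to 0.28, adjusted p = 0.51) and 0.09 (-0.12 to 0.29, adjusted p = 0.46). Changes larger than these intervals allow were therefore not seen for Bad and Bik, and changes within the intervals are not excluded with 4 libraries per group.

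**Figure D2:**
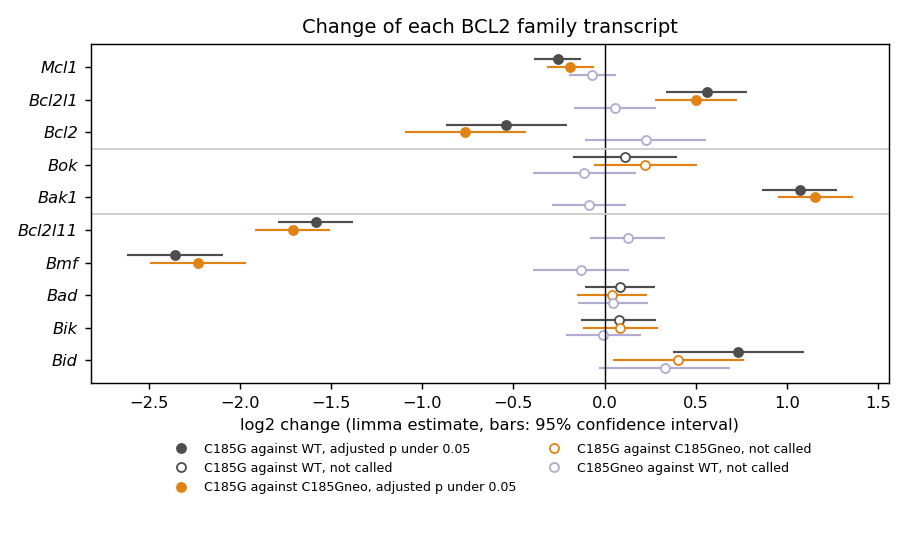
Log2 change of each member in the 3 comparisons, as points with bars for the 95% confidence interval of the limma estimate; filled points passed an adjusted p of 0.05. The intervals of Bmf, Bcl2l11 and Bak1 in both C185G comparisons lie farthest from 0, and those of Bok, Bad and Bik include it in all 3 comparisons.

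Of the effectors, Bak1 rose and Bok did not pass. Bak1 (ENSMUSG00000057789, chr17:27019810-27029009, minus strand), which sits in the mitochondrial outer membrane, stood at 13.8, 13.5, 15.5 and 13.9 CPM in WT, 12.9, 12.8, 14.3 and 13.4 in C185Gneo, and 26.4, 30.3, 27.4 and 35.8 in C185G. Every C185G library was above every control library, and WT and C185Gneo overlapped. Bak1 rose by 1.07 against WT (SE 0.10, adjusted p = 6.61e-07), a 2.10-fold higher level, and by 1.16 against C185Gneo (SE 0.10, adjusted p = 2.75e-07). Its whole span of 9200 bases lies inside that of Ggnbp1 on the opposite strand, which fell by 0.60 against WT (adjusted p = 0.00498), and the same uncertainty about strand as for Bid holds here.

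Bok (ENSMUSG00000026278, chr1:93685660-93695764, plus strand), an effector known to be little restrained by survival proteins, stood at 29.7, 28.9, 36 and 41.4 CPM in WT, 28.1, 32.8, 33.7 and 30.4 in C185Gneo, and 40.5, 42.0, 28.8 and 35.7 in C185G. The libraries of all 3 groups overlapped. The log2 difference was 0.11 against WT (95% interval -0.17 to 0.40, adjusted p = 0.49) and 0.22 against C185Gneo (-0.06 to 0.51, adjusted p = 0.16). Without C185G replicate 3, the lowest C185G library, the latter was 0.33 (adjusted p = 0.032).

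Survival genes did not move in 1 direction. Bcl2l1 (ENSMUSG00000007659, chr2:152780668-152831728, minus strand), whose main protein is BCL-XL, stood at 97.6, 105, 115 and 115 CPM in WT, 105, 112, 125 and 109 in C185Gneo, and 128, 158, 164 and 192 in C185G. The lowest C185G library lay just above the highest control library, and the controls overlapped. Bcl2l1 rose by 0.56 against WT (SE 0.10, adjusted p = 0.000481), a 1.47-fold higher level, and by 0.50 against C185Gneo (SE 0.10, adjusted p = 0.00104). Gene-level values do not separate the survival form of this gene from its short form, which promotes death.

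Mcl1 (ENSMUSG00000038612, chr3:95658788-95663176, plus strand), a survival protein with a very short life in the cell, was the most abundant member. It stood at 607, 568, 546 and 594 CPM in WT, 529, 518, 596 and 567 in C185Gneo, and 481, 472, 523 and 461 in C185G. All C185G libraries were below all WT libraries, and 1 of them was above the lowest C185Gneo library. Mcl1 fell by 0.26 against WT (SE 0.06, adjusted p = 0.00241), and by 0.15 with quantile normalization (adjusted p = 0.036). Its fall of 0.19 against C185Gneo (SE 0.06, adjusted p = 0.0151) did not pass with quantile normalization (-0.10, adjusted p = 0.16), with library totals as scaling (-0.13, adjusted p = 0.066) or without C185Gneo replicate 3 (-0.15, adjusted p = 0.055).

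Bcl2 (ENSMUSG00000057329, chr1:106538178-106714274, minus strand), the gene that gives the family its name, was scarce in all groups, with 89 to 182 reads per library. It stood at 6.35, 7.75, 8.19 and 7.83 CPM in WT, 7.14, 8.06, 9.70 and 10.6 in C185Gneo, and 5.56, 4.14, 4.91 and 6.22 in C185G. The highest C185G library lay just below the lowest WT library. Bcl2 fell by 0.54 against WT (SE 0.15, adjusted p = 0.00885) and by 0.76 against C185Gneo (SE 0.15, adjusted p = 0.000798). Among markers of other cells in the preparation, 6 of 9 endothelial genes were lower against WT and 7 of 9 against C185Gneo. Of 12 lymphocyte genes 3 were measured (Cd4, Cd79a and Cd79b), with summed levels of 20.0 to 28.9 CPM (WT), 20.4 to 26.0 (C185Gneo) and 16.1 to 20.3 (C185G), and 2 of them were lower in both comparisons. Their part in the change of Bcl2 was not tested.

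Levels can be set against each other between genes after division by exon length, in CPM per kilobase (kb) of the joined exons. In WT, Mcl1 stood at 169 ± 8.0 CPM per kb (mean ± SD, n = 4), ahead of Bcl2l1 at 23.6 ± 1.82, Bcl2l11 at 23.2 ± 2.71 and Bok at 18.5 ± 3.19, the latter 3 overlapping from one to the next. Next came Bmf at 11.4, Bad at 10.7 and Bik at 9.67, which also overlapped from one to the next, then Bak1 at 5.89, Bid at 0.94 and Bcl2 at 0.82 CPM per kb, each apart from its neighbours. C185Gneo gave the same order but for Bcl2l11 ahead of Bcl2l1 and Bad ahead of Bmf, 2 pairs whose libraries overlapped. In C185G, Mcl1 (142 ± 7.86) and Bcl2l1 (35.0 ± 5.74) were followed by Bok at 20.0, and Bak1 had moved up to 12.5, overlapping Bad at 11.3. Bcl2l11 stood at 7.73 ± 0.74 CPM per kb there, seventh of the 10, and Bmf at 2.21 overlapped Bid at 1.62.

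Summed over roles, on the same per-length scale and with no test, the 5 BH3-only members came to 52.2 to 61.6 CPM per kb (WT), 55.8 to 58.9 (C185Gneo) and 32.0 to 34.1 (C185G). Bcl2l11 and Bmf made up 59.7 to 64.4% of that sum (WT), 60.8 to 64.7% (C185Gneo) and 28.8 to 31.5% (C185G). This BH3-only sum leaves out Bbc3, a BH3-only gene that is not among the members. Bbc3 alone stood at 12.7 to 16.0 CPM per kb (WT), 12.6 to 14.9 (C185Gneo) and 14.5 to 18.1 (C185G), with all 3 groups overlapping. The sum and the share therefore hold for the 5 listed members and are no result about all BH3-only genes. Bak1 and Bok together came to 21.3 to 28.3, 20.6 to 24.3 and 27.1 to 35.4 CPM per kb. For this sum the C185G libraries overlapped WT through C185G replicate 3 alone, at 27.1 CPM per kb. Replicates 1, 2 and 4 of C185G stood at 33.0, 35.4 and 34.3. The sum leaves out Bax, an effector that is not among the members. Bax alone stood at 18.3 to 20.2 CPM per kb (WT), 16.7 to 18.6 (C185Gneo) and 38.8 to 43.0 (C185G), without overlap between C185G and the controls. The overlap therefore holds for Bak1 and Bok and is no result about all effectors. Survival members came to 186 to 200, 177 to 203 and 169 to 189 CPM per kb, overlapping throughout. The overlap of C185G with WT again rested on C185G replicate 3 alone, at 189. Replicates 1, 2 and 4 of C185G stood at 169.4, 173 and 177.5 CPM per kb, below every WT library. Within them, the ratio of Mcl1 to Bcl2l1 was 7.22 ± 0.83 (WT), 6.60 ± 0.34 (C185Gneo) and 4.13 ± 0.75 (C185G). Such sums are of transcripts and say nothing of protein, which for several members is set by phosphorylation, cleavage or turnover.

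**Figure D3:**
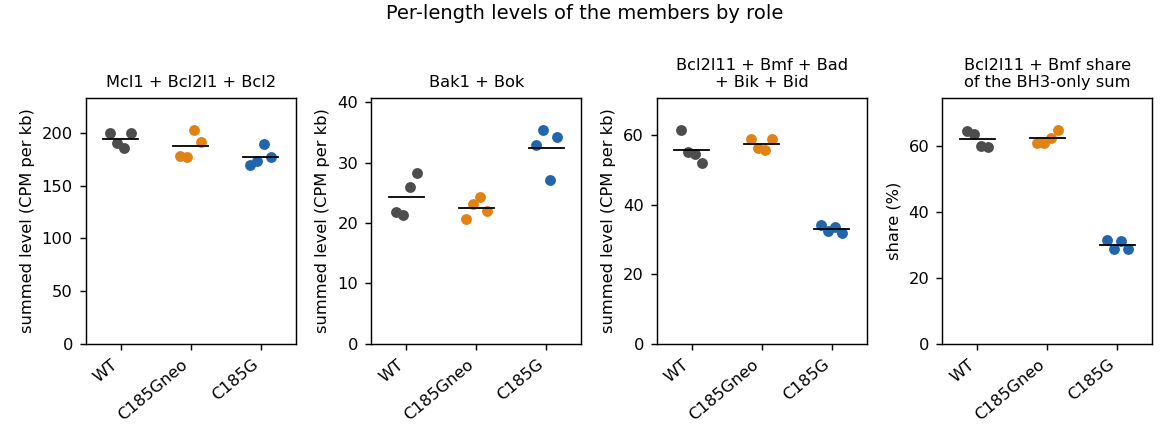
Summed per-length levels (CPM per kb, axes from 0) of the survival, effector (Bak1 and Bok, without Bax) and BH3-only (without Bbc3) members. Also shown is the share of Bcl2l11 and Bmf in the BH3-only sum (%). Each panel has 1 point per library with a bar at the group mean. The C185G libraries sit at 32.0 to 34.1 CPM per kb for the BH3-only sum, below all control libraries.

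Promoters of the 2 members that fell most are given as a description. A fall in C185G against WT was shared by 27.8% of all genes, and a link between promoter and change was not tested. RefSeq promoters (GRCm38.p6) matched 9 of the 10 members, and the 250 bases before the start are shown, from the entry nearest the GENCODE start. Bcl2l11 had 2 promoter entries and Bmf had 3, and matches in the entries farther away are not described here. Letters of 7 motifs were searched on both strands, and capitals mark every match: the FOXO core TGTTTAC, the cyclic AMP response element TGACGTCA, the C/EBP-ATF element TGATGNAA, the antioxidant element core TGACNNNGC, the GC box GGGCGG, the CCAAT box CCAAT and the E-box CACGTG.
Bcl2l11, chr2:128125788-128126037, plus strand: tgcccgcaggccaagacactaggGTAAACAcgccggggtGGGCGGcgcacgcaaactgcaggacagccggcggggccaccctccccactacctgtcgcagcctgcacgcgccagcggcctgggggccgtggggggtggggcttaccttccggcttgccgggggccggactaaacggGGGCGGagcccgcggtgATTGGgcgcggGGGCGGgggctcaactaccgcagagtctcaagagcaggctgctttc
Bmf, chr2:118549687-118549936, minus strand: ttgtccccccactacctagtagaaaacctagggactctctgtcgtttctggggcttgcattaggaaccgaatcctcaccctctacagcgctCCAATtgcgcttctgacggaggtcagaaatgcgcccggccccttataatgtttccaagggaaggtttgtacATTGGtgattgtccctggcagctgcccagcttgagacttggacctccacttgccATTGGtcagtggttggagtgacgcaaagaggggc
The Bcl2l11 window held 1 FOXO core on the opposite strand, 221 to 227 bases before the start, 3 GC boxes and 1 CCAAT box, and was 72.0% G and C. The Bmf window held 3 CCAAT boxes and none of the other 6 motifs, and was 54.0% G and C, against a median of 52.4% over all 32851 promoters in the table. FOXO cores were found in 3.17% of all promoters, GC boxes in 32.7% and CCAAT boxes in 33.8%. The remaining motifs were found in 1.55% (cyclic AMP response element), 3.45% (C/EBP-ATF element), 10.2% (antioxidant element core) and 6.02% (E-box). The Bak1 window, whose RefSeq start lies 382 bases from the GENCODE start, held none of the 7. Besides Bcl2l11, none of the other 8 matched members held a FOXO core in the window searched. These are matches of letters and not sites.

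Genes that neighbour the members were mixed in direction. Of the 20 nearest measured genes, 1 on each side of each member, 12 passed against WT (4 higher, 8 lower) and 13 against C185Gneo (5 higher, 8 lower), near the 55% and 57.8% of all genes that did. The largest change was that of Acoxl, an acyl-CoA oxidase-like gene that ends 2164 bases before Bcl2l11 on the same strand. Acoxl averaged 448 ± 57.9 CPM (WT), 576 ± 49.6 (C185Gneo) and 29.8 ± 14.1 (C185G) (n = 4 each), and fell by 4.01 on the log2 scale against WT (adjusted p = 2.6e-07) and by 4.37 against C185Gneo (adjusted p = 1.09e-07). Its lowest control library, at 372 CPM, lay far above its highest C185G library, at 50.3 CPM. Tpx2, a spindle assembly gene beside Bcl2l1, rose by 2.37 against WT (adjusted p = 0.000516) from 2.43 to 11.8 CPM. Cox4i2, a cytochrome c oxidase subunit gene on the other side of Bcl2l1, fell by 1.21 against C185Gneo (adjusted p = 1.03e-05) and by 0.78 against WT (adjusted p = 0.000479).

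Around Bcl2l11, 28 other measured genes started within 1000 kb of its start, of which 18 passed against WT (11 higher, 7 lower) and 20 against C185Gneo (12 higher, 8 lower), where 55% and 57.8% of all genes passed. Those that passed against WT with a change over 1 in size were 3 that fell (Acoxl, Bub1 and Mertk) and 2 that rose. Bub1, a spindle checkpoint kinase gene, fell by 1.56 against WT (adjusted p = 6.65e-06), and Mertk, a receptor for dying cells, fell by 1.18 (adjusted p = 2.75e-05). Ncaph, a condensin subunit gene, rose by 1.67 (adjusted p = 1.41e-05). A long noncoding RNA gene that is the nearest measured gene on the other side of Bcl2l11 from Acoxl rose by 2.48 (adjusted p = 0.000117), from 0.54 to 3.08 CPM. Bub1, Mertk, Ncaph and this gene were picked out after their values were seen.

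**Figure D4:**
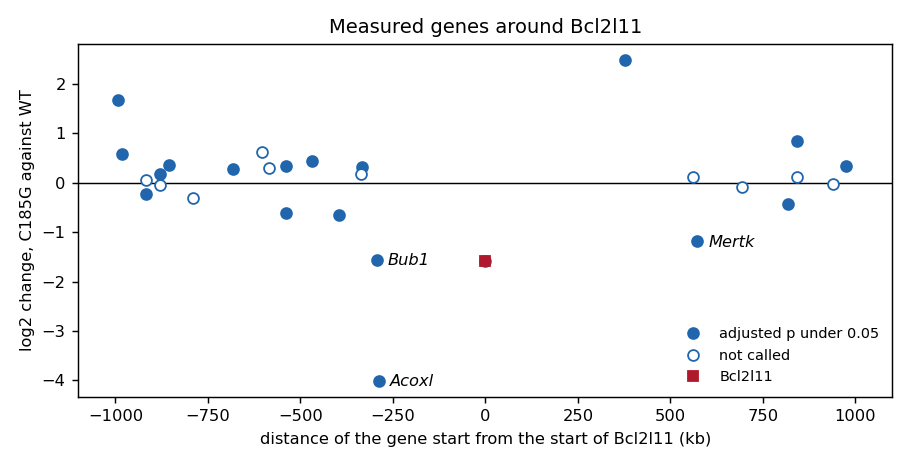
Log2 change in C185G against WT of Bcl2l11 and the 28 other measured genes around it, by the distance of each gene's start from that of Bcl2l11 (kb); filled points passed an adjusted p of 0.05. Acoxl has the lowest value at -4.01, Bcl2l11 (square) stands at -1.58, and values of both signs lie on either side.

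Of the other BCL2 family genes, 13 of 15 were measured, and 1 rose and 5 fell against WT (2 and 5 against C185Gneo). Over all genes, 27.3% rose and 27.8% fell against WT, and 29.2% and 28.7% against C185Gneo. Neither this list nor any of those below was tested as a set. The median log2 change of the 13 was -0.20 against WT and -0.09 against C185Gneo, beside medians of 0.00 over all genes. Bax, the third effector, stood at 30.7, 29.0, 28.8 and 31.9 CPM in WT, 29.3, 26.3, 29.2 and 27.1 in C185Gneo, and 65.2, 67.8, 67.7 and 61.1 in C185G. Every C185G library had more than any control library, as for Bak1, and Bax rose by 1.12 against WT (adjusted p = 9.03e-09) and by 1.23 against C185Gneo (adjusted p = 3.46e-09). Bcl2l2, a survival gene, fell by 0.34 against WT (adjusted p = 0.000104), from 71.6 ± 3.88 to 56.5 ± 1.83 CPM. Bcl2a1a and Bcl2a1b, near-identical survival genes between which reads may be split, fell by 1.34 (adjusted p = 0.000445) and 1.23 (adjusted p = 0.000921) from under 3 CPM. The other listed copy, Bcl2a1d, did not pass (log2 difference 0.10, adjusted p = 0.81), at 0.95 ± 0.34 CPM in WT and 1.02 ± 0.33 in C185G. Bbc3, the BH3-only gene for PUMA, did not pass, at 30.0 ± 3.19 CPM in WT against 33.0 ± 3.64 in C185G (log2 difference 0.14, adjusted p = 0.22). Pmaip1, the BH3-only gene for NOXA, had 2.81 ± 0.60 and 2.44 ± 0.97 CPM and did not pass either (-0.27, adjusted p = 0.40).

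Downstream of the mitochondrion, all 13 genes of the apoptosome, caspases and released proteins were measured. Of these, 3 rose and 3 fell against WT, with the same counts against C185Gneo, where 55% and 57.8% of all genes passed. The median log2 change of the 13 was 0.04 against WT. Htra2, Cycs (cytochrome c) and Diablo, which the pore releases, rose by 0.68 (adjusted p = 3.28e-05), 0.41 (adjusted p = 0.000578) and 0.40 (adjusted p = 0.000988). Casp6, an executioner caspase, fell by 0.50 (adjusted p = 8.45e-05). Of 5 inhibitor of apoptosis genes, Birc5 (1.12, adjusted p = 9.35e-05), also a gene of dividing cells, and Birc2 (0.18, adjusted p = 0.038) rose. Birc3 fell by 0.41 (adjusted p = 0.00148) and Xiap, which blocks caspases directly, by 0.37 (adjusted p = 0.00124).

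Upstream of Bid, 9 of 10 death receptor genes were measured. Of these, 3 were higher and 1 lower against WT (55% of all genes passed) and 3 higher and 2 lower against C185Gneo (57.8%). Casp8, whose product cleaves Bid, rose by 0.47 (adjusted p = 2.3e-05). Receptors Fas and Tnfrsf10b rose by 0.30 (adjusted p = 0.033) and 0.29 (adjusted p = 0.030) against WT, and Tnfrsf1a fell by 0.22 (adjusted p = 0.0092). Cflar, the inhibitor of caspase 8, fell by 0.32 against C185Gneo (adjusted p = 0.00984), and its difference from WT was -0.22 (adjusted p = 0.059). The median over the 9 genes was 0.00 against WT.

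Membrane and cytoskeletal partners of BCL2 proteins were measured for 11 of 11 genes. Of these, 5 rose and 1 fell against WT (55% of all genes passed) and 6 and 1 against C185Gneo (57.8%). Vdac3 and Vdac1, channels of the mitochondrial outer membrane, rose by 0.84 (adjusted p = 2.47e-07) and 0.68 (adjusted p = 9.99e-08), and Mtch2, the membrane partner of Bid, rose by 0.44 (adjusted p = 5.8e-05). Itpr2, a calcium channel of the endoplasmic reticulum, fell by 1.45 (adjusted p = 2.77e-08), from 110 ± 12.5 to 40.1 ± 4.64 CPM. The median log2 change over the 11 was 0.12 against WT.

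Enzymes and adaptors that control BCL2 proteins were all measured, with a median of 0.03 against WT. Of the 18, 8 rose and 6 fell against WT (55% of all genes passed) and 8 and 5 against C185Gneo (57.8%). Ywhag, a 14-3-3 gene, rose by 1.13 (adjusted p = 4.37e-10), and Ywhab by 0.34 (adjusted p = 8.75e-06). Huwe1, a ubiquitin ligase of MCL1, rose by 0.60 (adjusted p = 2.76e-06). Pim3, a kinase that phosphorylates BAD, fell by 1.05 (adjusted p = 3.05e-07). Ppp3ca, a calcineurin subunit gene, was the 1 gene of the pathway lists (cell type markers aside) to pass between C185Gneo and WT, with a fall of 0.32 (adjusted p = 0.0445), and is named for that after its values were seen.

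Transcription factors known to act on BCL2 family genes were measured for 17 of 17, with a median of -0.26 against WT. Of these, 5 rose and 8 fell against WT (55% of all genes passed) and 6 and 8 against C185Gneo (57.8%). Myc rose by 0.93 (adjusted p = 2.05e-07) and Atf5 by 0.86 (adjusted p = 3.86e-06). Stat5a and Stat5b, known to act on Bcl2l1, fell by 0.97 (adjusted p = 1.13e-07) and 0.89 (adjusted p = 3.06e-06). Foxo3, a FOXO factor known to act on Bcl2l11, fell by 0.74 against WT, from 281 ± 8.03 to 168 ± 19.8 CPM, and is named after its values were seen. The other factors that passed against WT outside the naming rule went both ways. E2f1 (0.91), Trp53 (0.56) and Hif1a (0.24) rose, and Atf3 (-0.71), Jun (-0.48), Atf4 (-0.40), Stat3 (-0.29) and Foxo1 (-0.26) fell. None of these comparisons of transcript levels measures the activity of a factor.

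Genes whose pattern over the 12 libraries was most like that of a member were ranked by Pearson's r of log2 values among 11618 genes with a mean of at least 5 CPM. The libraries fall into C185G and the rest, so r mainly reflects that split and is given as a description. Closest to Bcl2l11 were Emb (r = 0.99) and Hc (r = 0.99), closest to Bmf were Maged1 (r = 0.99) and Creb3l1 (r = 0.99), and closest to Bak1 were Immt (r = 0.99) and Afg3l2 (r = 0.99). Between members, r was 0.96 for Bcl2l11 with Bmf and -0.98 for Bcl2l11 with Bak1.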

How the data were processed

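Each library has 1 deposited file of log2 values, which the spacing of the values shows to be log2 of a whole count plus 0.5, times a factor of that library set by the authors. Whole counts came out for 100% of the values (tolerance 1e-06). STAR, limma and mm10 are named in the submitters' processing notes, without versions. The sources used here name no annotation, counting tool or strand setting. Gene names, exon lengths and positions were taken from GENCODE M21 (GRCm38), which named 16017 of 16080 genes. Normalized CPM are the counts times the authors' factor, per 1000000 of the mean scaled total. limma 3.58.1 (R 4.3.3) was fitted to the log2 values of all 12 libraries, with 1 coefficient per genotype and trended, robust eBayes, and p-values were adjusted over all 16080 genes. The script was tested on simulated data. Replicates were not duplicates of each other. Members and lists were chosen with earlier results of these data known. Named genes are all members, up to 4 genes of a list by p against WT and up to 2 against C185Gneo, Bax, Bbc3, Pmaip1 and Bcl2l2 in any case, neighbours called with a log2 change over 1 in size, and the 2 closest patterns; predicted genes and pseudogenes are not named. Alternatives were other normalizations, weights, a minimum of 5 CPM, 5 added to the normalized counts, a replicate block and leaving out each library.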

Additional observations from a re-analysis of the deposited data

Results flagged for a closer look

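Bad stood at 30.6 CPM in C185Gneo replicate 1, where the other 3 libraries of that group lay between 27.0 and 27.6 CPM, so that the gap to the nearest took up 0.837 of the group's range, past Dixon's critical value for a group of 4. It was the 1 case among the 30 groups of 4 libraries tested (10 members in 3 genotypes), and chance gives about 1 in 20. C185Gneo replicate 1 is also the library with the lowest summed mesenchymal markers, at 181 CPM, and a relation between these values was not tested.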

How the results depend on the processing

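Against WT, all 219 values of single members under the 22 alternatives kept their direction and their side of the threshold, and with a minimum of 5 CPM Bid was not tested, leaving 6 of 9 members called. Against C185Gneo, 211 of 219 did. Mcl1 lost its call in 3 (given above), Bok gained one without C185G replicate 3 (0.33), and Bid gained one without a trend (0.40, adjusted p = 0.048), with library totals as scaling (0.47, adjusted p = 0.027), with library quality weights (0.40, adjusted p = 0.031) and without C185G replicate 1. Bik between C185Gneo and WT, uncalled throughout, changed sign with library totals as scaling (0.0094) and ranged from -0.0682 to 0.0617 with single libraries left out. Genes called between C185Gneo and WT were 87, but 54 without a trend, 162 with library quality weights, and 40 to 112 with 1 library left out (40, 45 and 51 without WT replicates 1, 3 and 4, and 43, 42 and 44 without C185Gneo replicates 1, 2 and 3). The cause was not tested.

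Whether replicate numbers pair the libraries is not stated in the labels used here. Correlations of same-numbered deviations ran from -0.30 to 0.25, and those between C185Gneo and WT from 0.03 to 0.25. Of the 12 libraries, 5 were closest to their own number. Low correlations of this kind do not exclude a pairing, so the check cannot decide it. With the replicate block, 8670, 9112 and 63 genes and 7, 6 and 0 members were called (C185G against WT, then against C185Gneo, then C185Gneo against WT), and no member's call changed. Depth limits Bid and Bcl2 most, with 54 to 182 reads per library.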
